A study of Mus musculus with 16 samples.

Results

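A set of 10 genes of meiotic prophase was followed into haploid spermatids, the cells that come after meiosis. They are Stra8, Rec8, Sycp2, Sycp3, Hormad1, Sycp1, Prdm9, Spo11, Dmc1, and Meiob, which were chosen by name and make up 10 of the 21938 protein-coding genes on chromosomes 1 to 19, X, and Y in GENCODE M21. The spermatids came from hemizygous H2A.B triple knockout males (ΔH2A.B/Y, KO), in which CRISPR/Cas9 editing had disrupted the X-linked genes H2afb1, H2afb2, and H2afb3, and from wild-type male siblings (+/Y, WT). All males were 2 months old, had not been mated, and belonged to a single KO line backcrossed to C57BL/6J. They formed 2 sibling pairs, so each group below holds 2 animals. Live haploid cells were sorted by DNA content after Hoechst and propidium iodide staining, and each animal gave 4 AutoCUT&RUN libraries, in which an antibody tethers micrococcal nuclease to chromatin and the released fragments are sequenced. The antibodies recognized H3K4me3, a mark of active promoters, H3K27me3, the mark of Polycomb repression, H3K9me3, a mark of constitutive heterochromatin, and no chromatin target (IgG), which gave 16 libraries. No RNA was measured, so the values below are marks on genes and not expression.

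Stra8 is the retinoic acid-induced switch into meiosis. The other genes build the machinery of prophase: a cohesin and axis proteins that shape the chromosomes, the synaptonemal complex that zips homologs together, and the enzymes that choose, cut, and repair recombination sites. Most of these genes are turned on around the entry into meiosis, and their known roles end before the spermatid stage, so the question was which marks their starts and bodies carried in the haploid cells.

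The genes lie on 7 chromosomes, and the closest start of another protein-coding gene was 6787 bp away, so none of the 10 shared its promoter window with a neighbor. The upstream sequences of 6 genes are given, to show starts with H3K4me3 that hold the motifs searched in the printed bases (Sycp3, Hormad1, Sycp1, and Prdm9), the start with the most H3K4me3, which holds none in them (Rec8), and the start with H3K27me3 (Stra8). Each is the 150 bases before the outermost annotated start, 5′ to 3′ on the gene's strand in mm10. They lie at chr10:88459419-88459568 (+) for Sycp3, chr3:95559527-95559676 (+) for Hormad1, chr3:102936101-102936250 (-) for Sycp1, chr17:15564375-15564524 (-) for Prdm9, chr14:55617852-55618001 (+) for Rec8, and chr6:34920013-34920162 (+) for Stra8. Capitals mark the E-box CACGTG and the E2F motif GCGGGA or its reverse complement TCCCGC, which do not overlap in these bases.
Sycp3: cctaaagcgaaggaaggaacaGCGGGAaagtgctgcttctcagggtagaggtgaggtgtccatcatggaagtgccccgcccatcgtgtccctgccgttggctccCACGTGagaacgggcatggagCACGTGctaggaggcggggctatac
Hormad1: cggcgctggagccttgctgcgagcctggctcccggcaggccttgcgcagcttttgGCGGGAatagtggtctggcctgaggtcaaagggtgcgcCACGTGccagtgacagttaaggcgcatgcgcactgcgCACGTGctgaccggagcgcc
Sycp1: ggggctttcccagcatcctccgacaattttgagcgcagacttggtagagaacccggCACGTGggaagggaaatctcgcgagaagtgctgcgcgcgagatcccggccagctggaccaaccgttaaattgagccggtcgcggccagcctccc
Prdm9: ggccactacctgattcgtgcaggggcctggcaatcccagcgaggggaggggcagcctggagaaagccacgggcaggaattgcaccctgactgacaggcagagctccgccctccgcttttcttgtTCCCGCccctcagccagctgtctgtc
Rec8: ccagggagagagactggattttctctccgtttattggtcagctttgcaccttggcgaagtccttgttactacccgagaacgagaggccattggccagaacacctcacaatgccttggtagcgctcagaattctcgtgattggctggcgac
Stra8: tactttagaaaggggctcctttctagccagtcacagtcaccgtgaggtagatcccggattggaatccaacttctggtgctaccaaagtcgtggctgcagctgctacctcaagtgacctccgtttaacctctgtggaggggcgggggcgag
Sycp3 and Hormad1 each hold 2 E-boxes and 1 E2F motif in these bases, Sycp1 holds 1 E-box, Prdm9 holds 1 E2F motif, and Rec8 and Stra8 hold neither. The same 150 bases of Sycp2 and Dmc1, which also carried H3K4me3, hold neither. Motifs were counted in RefSeq promoter windows of GRCm38, from 250 bases before to 50 bases after a start, on both strands. Such windows were at hand for 8 of the 10 genes (not Spo11 and Meiob), with 2 windows each for Hormad1 and Prdm9, so that a count of genes and a share of windows are not the same unit. The window of Stra8 belongs to a RefSeq start 785 bp inside the gene. An E-box stood in those of 3 genes (Sycp3, Hormad1, and Sycp1), against 7.15% of all 32817 windows. An E2F motif stood in those of 6 genes (Sycp3, Hormad1, Sycp1, Prdm9, Rec8, and Dmc1), against 20% of all windows, and the CRE motif TGACGTCA in those of 0 genes, against 1.79%. These are letter matches only.

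After removal of repeated coordinates, H3K4me3 libraries held 784360 to 3394830 distinct fragments, H3K27me3 libraries 200457 to 3806026, H3K9me3 libraries 5009169 to 6746382, and IgG libraries 159611 to 270598. Levels at starts are numbers of distinct fragments, scaled to a library of 1e+06 distinct fragments (FPM), whose midpoint fell within 1 kb of the gene start. Fragments spread evenly over the genome would give 0.756 FPM in such a window, and a count of 0 allows up to 3 fragments, which is 15 FPM in the shallowest H3K27me3 library (WT replicate 2) and 11.1 to 18.8 FPM in the IgG libraries. Intervals and floors cover counting error only. None of 8 Sertoli cell markers, 8 Leydig and myoid cell markers, and 6 macrophage markers had H3K4me3 above the median of coding genes, and their summed levels per library ran from 2.55 to 4.45 FPM, from 0 to 2.75 FPM, and from 0.742 to 2.95 FPM. Of 10 spermatogonia markers, 4 were above it, with a sum of 80.3 FPM in WT replicate 1, the shallowest H3K4me3 library, and 28.4 to 45.3 FPM in the other 3. The part of that library's spermatogonia signal in the results below was not tested.

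H3K4me3 was present at the starts of most of these genes in the libraries from sorted haploid cells. At the annotated gene start, 8 of the 10 genes were above the median of all coding genes, which was 3.24 FPM, and their means over the 4 libraries ran from 11.5 to 20.5 FPM, or from the 68.5th to the 88.5th percentile of coding genes. Stra8 and Spo11 were the exceptions. The same 8 genes were above 3.78 FPM, 5 times the even spread, as were 10629 of all coding genes (48.5%). A level from sorted cells cannot tell a mark on fewer cells from less of the mark per cell. The marker lists above did not cover spermatocytes, and a part of the signal from such cells was not tested.

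**Figure D1:**
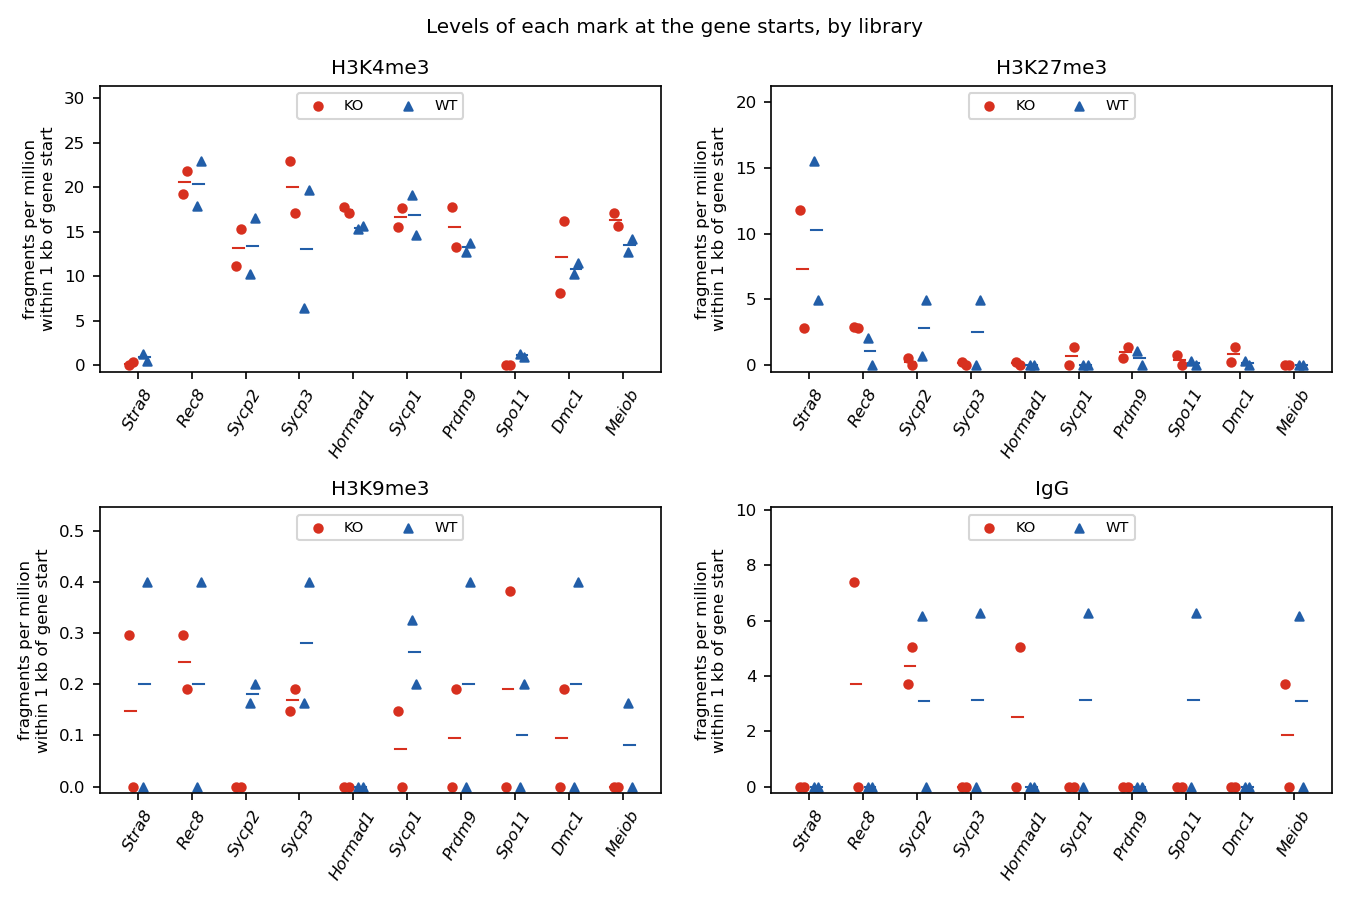
Levels at the gene starts of the 10 meiotic genes, in FPM within 1 kb of the start, with 1 panel per antibody, red circles for KO libraries, blue triangles for WT libraries, and short bars for the means of the 2. All genes but Stra8 and Spo11 sit at 6.38 FPM or higher for H3K4me3 in every library, Stra8 has the highest H3K27me3, and the scale of the H3K9me3 panel is far smaller than that of the others.

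Rec8 (chr14:55618037-55625395), the meiosis-specific kleisin subunit of cohesin, had the highest level. Its start held 19.3 FPM in KO replicate 1, 21.8 in KO replicate 2, 17.9 in WT replicate 1, and 22.9 in WT replicate 2 (20.5 ± 2.31, SD, n = 4), from 26, 74, 14, and 50 fragments. KO and WT libraries overlapped. The pooled level was 8.42 times that of IgG, with a 95% counting interval of 2.29 to 70.1, since the 4 IgG libraries held 2 fragments there.

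Among the axis genes, Sycp3 (chr10:88459569-88473236), which forms the lateral elements together with Sycp2, held 23.0 and 17.1 FPM in the KO libraries and 6.38 and 19.7 FPM in the WT libraries (16.5 ± 7.20, SD, n = 4). The low value in WT replicate 1 rests on 5 fragments, and it made Sycp3 the most variable of the 8 genes. Sycp2 (chr2:178345293-178407685) held 11.1 and 15.3 FPM in KO and 10.2 and 16.5 FPM in WT (13.3 ± 3.09, SD, n = 4). Hormad1 (chr3:95559677-95587671), a HORMA-domain protein that sits on unsynapsed axes, was the most even of the 8, with 17.8 and 17.1 FPM in KO and 15.3 and 15.6 FPM in WT (16.5 ± 1.20, SD, n = 4). Here the KO libraries lay above the WT libraries without overlap, but WT replicate 1 held only 12 fragments. The share of all genes with such an order was not counted. The smallest p of an exact permutation test with 2 libraries against 2 is 0.333. Pooled levels were 14.1 times IgG for Sycp3 (95% counting interval 2.48 to 559), 13.1 times for Hormad1 (2.32 to 523), and 3.80 times for Sycp2 (1.27 to 18.7).

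Sycp1 (chr3:102818499-102936100), the transverse filament of the synaptonemal complex, held 15.6 and 17.7 FPM in KO and 19.1 and 14.7 FPM in WT (16.8 ± 2.01, SD, n = 4), which overlapped, and its pooled level was 13.1 times IgG (2.32 to 523). Prdm9 (chr17:15543079-15564354), the histone methyltransferase that chooses recombination hotspots, held 17.8 and 13.3 FPM in KO and 12.8 and 13.8 FPM in WT (14.4 ± 2.31, SD, n = 4). IgG gave 0 fragments at the Prdm9 start, so its H3K4me3 was at least 3.73-fold higher than IgG.

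Of the strand exchange genes, Dmc1 (chr15:79561497-79605109), the meiotic recombinase, had the lowest level of the 8, with 8.16 and 16.2 FPM in KO and 10.2 and 11.5 FPM in WT (11.5 ± 3.41, SD, n = 4), at least 3.39-fold higher than IgG. Meiob (chr17:24804289-24839788), a single-strand DNA binding protein needed for crossovers, held 17.1 and 15.6 FPM in KO and 12.8 and 14.2 FPM in WT (14.9 ± 1.85, SD, n = 4), 6.0 times IgG (1.63 to 50.2). As at Hormad1, both KO libraries of Meiob lay above both WT libraries, of which replicate 1 held 10 fragments. The share of all genes with this order was not counted. In the order of means, neighbors from Rec8 down to Dmc1 differed by less than the SD over the 4 libraries of at least 1 of the pair, except Rec8 and Sycp1, whose gap of means exceeded both SDs.

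Spo11 (chr2:172977700-172993576), the topoisomerase-like protein that makes the double-strand breaks, depended on which start was used. Its annotated gene start held 0 fragments in both KO libraries and 1 and 2 in the WT libraries, no more than the floor. The first protein-coding transcript starts 2142 bp further into the gene, and the window around that start, an alternative chosen after seeing the data, held 12, 44, 9, and 18 fragments, or 8.90 and 12.96 FPM in KO and 11.5 and 8.25 FPM in WT (10.4 ± 2.203, SD, n = 4). This is the 65.9th percentile of coding genes and 8.52 times IgG (1.49 to 340). With coding-transcript starts throughout, 9 of the 10 genes were above 3.78 FPM, and 10667 of all coding genes were. The window around the RefSeq gene start of Spo11, which lies further upstream, held 3 fragments over the 4 libraries.

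The 8 genes could all be tested against IgG, and 8 of 8 were called higher by a negative binomial quasi-likelihood test over all genes with Benjamini-Hochberg adjustment (adjusted p from 0.00665 for Prdm9 to 0.0347 for Sycp2), where 71.8% of the 12887 genes tested were called higher. IgG held at most 3 fragments at these starts, so the 8 genes reached the 10 fragments needed through H3K4me3, and the count is no support for the mark. The calls also rest on the fit: median-of-ratios scaling called 0 of the 8, and counting every deposited fragment called 5. With the sibling pair, read from the replicate number, as a block, Sycp2 (adjusted p = 0.0637) and Sycp3 (adjusted p = 0.0531) were not called. Stra8 and Spo11 did not reach 10 fragments.

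The extent of the H3K4me3 differed between genes. Counted in 1-kb steps with at least 8 fragments each, it ran from 4 kb before to 5 kb after the start at Sycp3 (439 fragments over the 4 libraries), from 2 kb before to 8 kb after at Rec8, which covers the whole 7.36-kb gene (369 fragments), and only from 2 kb before to 1 kb after at Prdm9 and Meiob (119 and 141 fragments). At Spo11 it ran from 2 to 5 kb into the gene (119 fragments). The side of the start also differed. Of the fragments within 2 kb of the Hormad1 start, 76.9% in KO and 73.6% in WT lay downstream, while at Prdm9 the shares were 36.0% and 34.0% and at Meiob 36.2% and 28.3%.

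**Figure D2:**
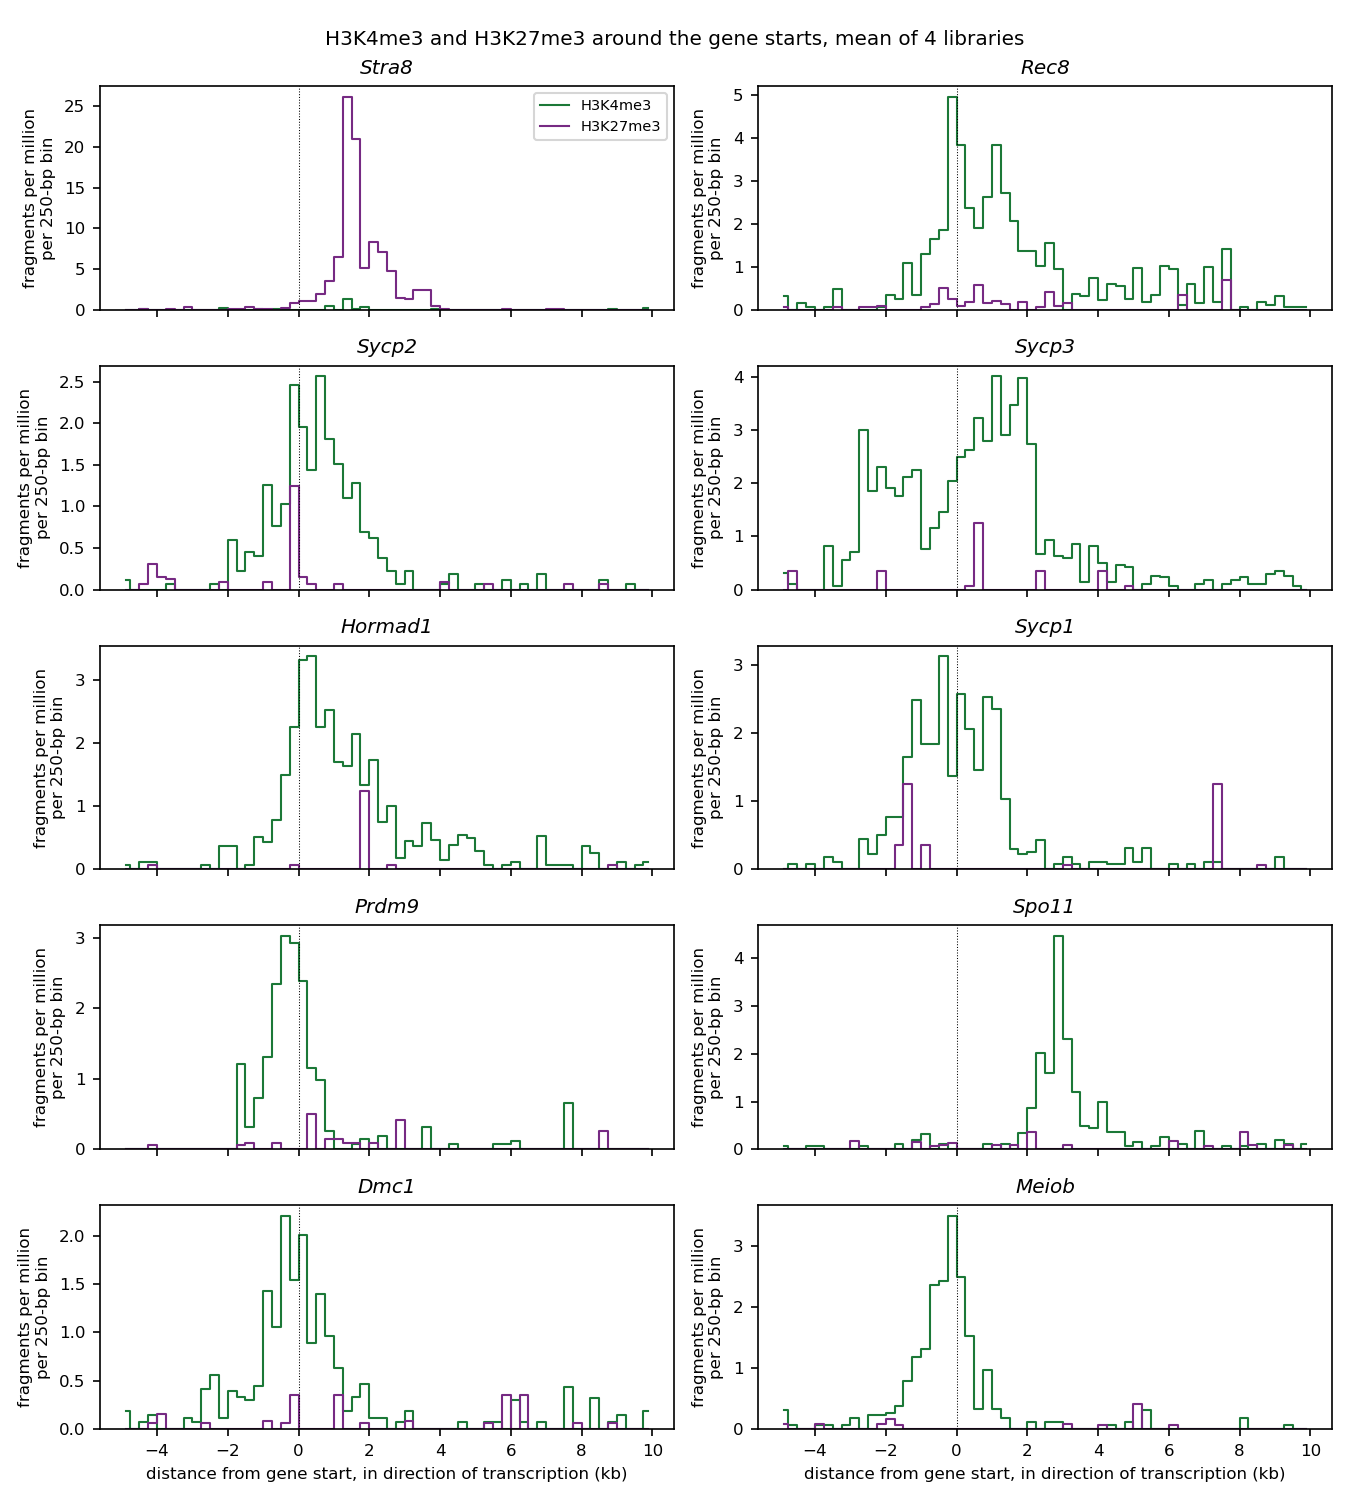
FPM in steps of 250 bp along the 10 meiotic genes, as a function of the distance in kb from the gene start, with H3K4me3 in green and H3K27me3 in purple, as the mean of the 4 libraries of each mark. The vertical scale differs between genes. The densest H3K4me3 lies within 1 kb of the start of Rec8, Sycp2, Hormad1, Sycp1, Prdm9, Dmc1, and Meiob, 1 to 2 kb downstream of that of Sycp3, and 2 to 3 kb into Spo11, and Stra8 shows H3K27me3 from 1 kb before to 4 kb after its start.

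Stra8 (chr6:34920163-34939344) was the only gene of the 10 with H3K27me3 in place of H3K4me3. Within 1 kb of its start, H3K27me3 fragments numbered 45 and 2 in the KO libraries and 45 and 1 in the WT libraries, or 11.8, 2.81, 15.6, and 4.99 FPM (8.80 ± 5.92, SD, n = 4), the 81.5th percentile of coding genes. The values of replicate 2 rest on 1 or 2 fragments in shallow libraries and are below their floors. H3K4me3 gave 0 and 1 fragments in KO and 1 and 1 in WT there, and IgG gave 0, so H3K27me3 was at least 3.22-fold higher than IgG.

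The wider Stra8 domain did not depend on single fragments. From 1 kb before to 4 kb after the start (chr6:34919163-34924162), all 4 H3K27me3 libraries held signal, with 397 and 34 fragments in KO and 308 and 25 in WT. Scaled to depth these were 104 and 47.8 FPM in KO and 107 and 125 FPM in WT, so the lowest library was KO replicate 2. Pooled, the domain held 100 FPM of H3K27me3 against 1.69 FPM of H3K4me3, 0.778 FPM of H3K9me3, and 1.26 FPM of IgG (1 fragment). The densest kb lay 1 to 2 kb downstream of the start, with 195 and 22 fragments in KO and 154 and 20 in WT. Over the 19.2-kb gene, Stra8 held 5.42 and 2.56 FPM per kb in KO and 5.46 and 6.50 FPM per kb in WT, the 94.7th percentile of coding genes.

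In the tests between marks, the Stra8 start had less H3K4me3 than H3K27me3, with a log2 difference of -4.77 and an adjusted p of 0.000134 (negative binomial quasi-likelihood test, Benjamini-Hochberg), and more H3K27me3 than H3K9me3, with a log2 difference of 5.96 and an adjusted p of 2.61e-06. Of the 9 genes tested between H3K4me3 and H3K27me3 at starts, the other 8 had more H3K4me3 (62.1% of the 16648 genes tested did) and Stra8 alone had less (29.2%). Stra8 reached the 10 fragments needed through H3K27me3 alone, Rec8 could have done so through either mark, and the other 7 did so through H3K4me3 alone, so these counts are no support for a difference. Between H3K4me3 and H3K9me3, 8 of 8 had more H3K4me3, against 78.6% of 16280 genes, and they too had passed through H3K4me3 alone. Between H3K27me3 and H3K9me3, 2 of 2 (Stra8 and Rec8) had more H3K27me3, against 68.5% of 9745 genes, and median-of-ratios scaling called 0 of the 2. Both had passed through H3K27me3 alone, so this count is no support either. Such a difference compares shares of libraries made with different antibodies, not amounts of the 2 marks.

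Outside Stra8, H3K27me3 was sparse. Rec8 had 11 and 2 fragments at its start in KO and 6 and 0 in WT (1.94 ± 1.35 FPM, SD, n = 4), which pooled was 0.988 times IgG (0.238 to 8.74). The other 8 genes had 0 to 6 fragments each over all 4 libraries. Against IgG at starts, 1 of the 2 genes tested was called higher, which was Stra8 (73.1% of 6707 genes were), and both had entered the test through H3K27me3. H3K9me3 gave 0 to 5 fragments per start over 4 libraries, with means of at most 0.225 FPM. None of the 10 reached the 10 fragments, H3K9me3 and IgG together, that a test against IgG needed.

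Over whole genes, levels are per kb of gene length. The body begins at the gene start, so H3K4me3 just after the start is part of it and adds more per kb to a short gene. H3K4me3 was highest over Rec8 (4.63 ± 1.03 FPM per kb, SD, n = 4) and Sycp3 (2.79 ± 0.831), the shortest genes, and lowest over Stra8 (0.155 ± 0.106). Against IgG, 4 of 10 genes were called higher: Rec8 (log2 difference 3.19, adjusted p = 0.00248), Sycp3 (2.16, 0.00592), Dmc1 (2.16, 0.0455), and Spo11 (1.91, 0.0311). The background was 43.6% of 18411 genes. These 4 genes held 3 to 7 IgG fragments each and so passed the filter through H3K4me3 alone, and their count is no support for the mark. Counting every deposited fragment called 0 of the 10, and median-of-ratios scaling called 2. With the sibling pair as a block, 2 of 10 were called, and 2 were called without KO replicate 1 or 2 of IgG or without KO replicate 2, WT replicate 1, or WT replicate 2 of H3K4me3. For Spo11 the signal comes from the coding-transcript start described above.

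Over whole genes, Stra8 had the highest H3K27me3 of the 10. With 759 H3K27me3 and 6 IgG fragments it entered the test through H3K27me3 alone. Stra8 was called higher than IgG (log2 difference 3.63, adjusted p = 0.00273, 13.2 times IgG with a counting interval of 6.01 to 36.0), where 24.7% of 15142 genes were, and Sycp1 and Sycp2 were called lower, where 12.9% were. Counting every deposited fragment left 0 of these 3 calls, and with the sibling pair as a block Sycp2 lost its call (adjusted p = 0.0647) while Stra8 was called (adjusted p = 0.0193). Relative to H3K4me3, 7 of 10 genes had more H3K4me3 (45.9% of 19711 genes) and Stra8 had less (17.8%), with a log2 difference of -5.06, and 2 genes were called in all with every deposited fragment, and 5 without KO replicate 2, WT replicate 1, or WT replicate 2 of H3K4me3. Relative to H3K9me3, Stra8 alone had more H3K27me3 (32.8% of 19409 genes), with a log2 difference of 6.23 and an adjusted p of 0.000775, and with the sibling pair as a block Stra8 and Rec8 were called. Median-of-ratios scaling called 5 of 10, with Stra8 still higher and 4 others lower. Each of the 10 genes reached 10 fragments in every test over bodies between antibodies. In the test between H3K4me3 and H3K27me3, Sycp3 held 6 H3K27me3 fragments and did so through H3K4me3 alone. Its place among the 7 genes is therefore no support for a difference.

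H3K9me3 over the bodies ran from 0.0407 FPM per kb at Sycp2 to 0.246 at Sycp1, and 0 of 10 genes were called higher than IgG, as were 3.76% of 17836 genes. Sycp1, Sycp2, Sycp3, and Meiob were called lower than IgG, as were 20.6% of all genes, and 8 of 10 genes had more H3K4me3 than H3K9me3, as had 68.3% of 20432. The 4 calls below IgG went to 0 with every deposited fragment or median-of-ratios scaling and to 9 with limma-voom, and with the sibling pair as a block Meiob lost its call (adjusted p = 0.0639) and Hormad1 gained one (adjusted p = 0.0455). Leaving out KO replicate 1, WT replicate 1, or WT replicate 2 of H3K9me3 left 0 of the 4 calls below IgG, leaving out KO replicate 1 or 2 of IgG left 1, and leaving out WT replicate 2 of IgG left 2.

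**Figure D3:**
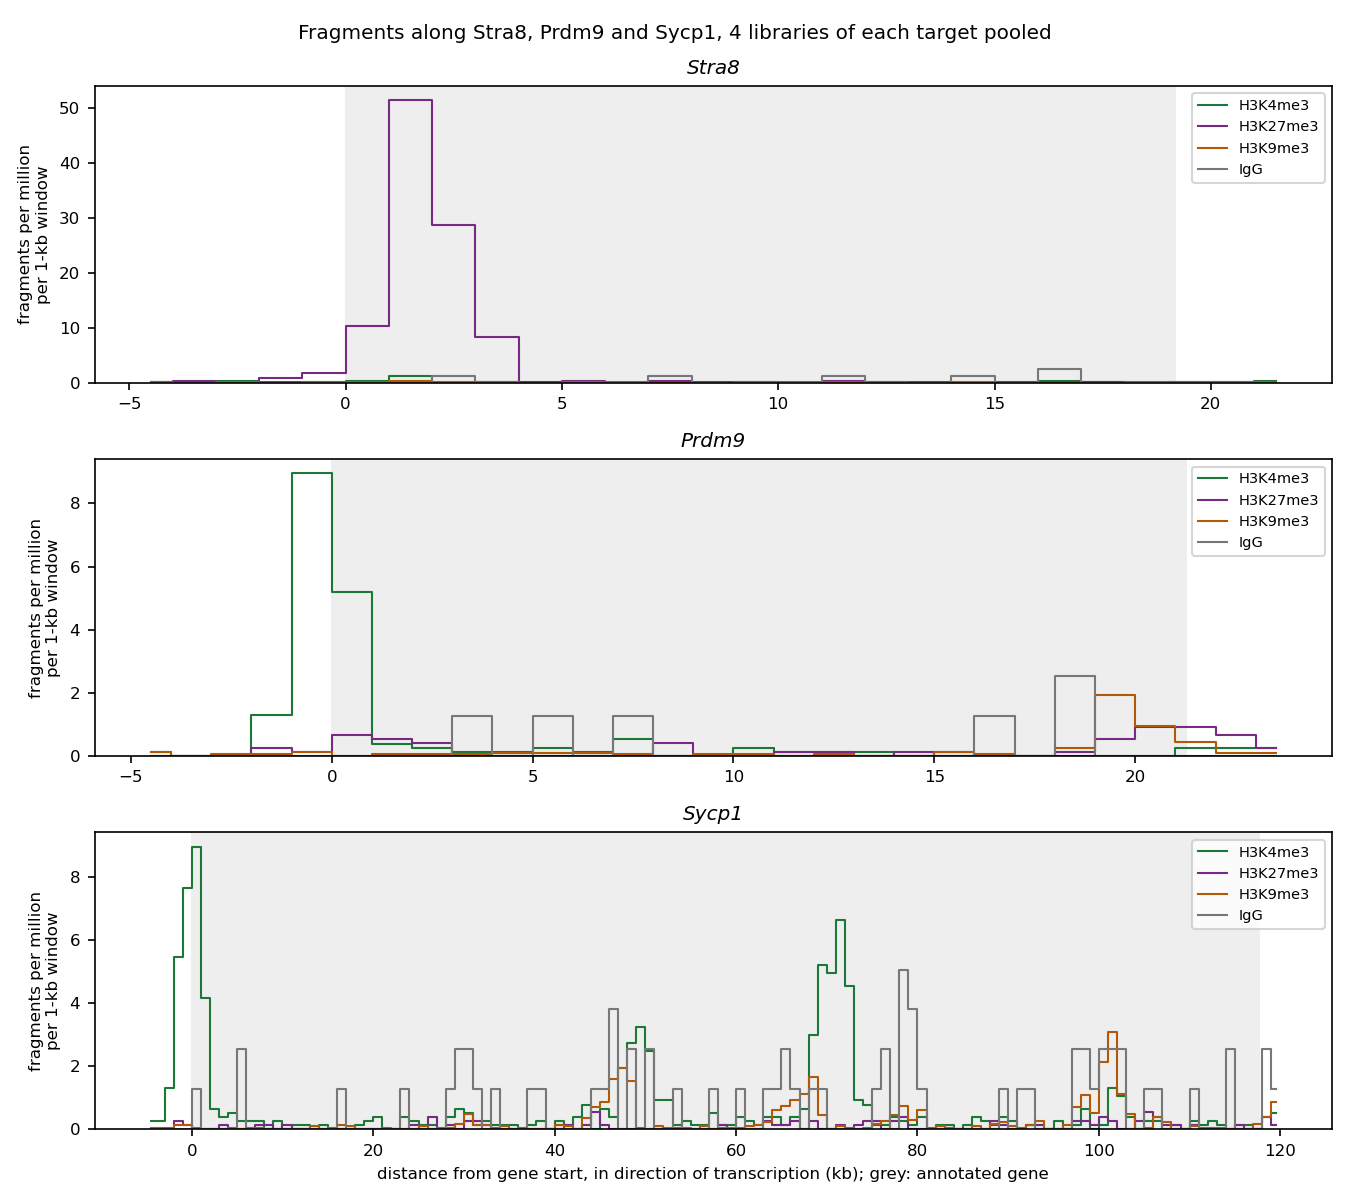
FPM in 1-kb steps along Stra8, Prdm9, and Sycp1 as a function of the distance in kb from the gene start, pooled over the 4 libraries of each antibody, with gray shading for the annotated gene. H3K4me3 recurs inside Sycp1 at 68 to 73 kb, H3K9me3 is densest over the end of Prdm9, H3K27me3 in Stra8 is densest 1 to 2 kb into the gene, and single IgG fragments show as steps of 1.26 FPM.

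Signal away from the start was seen in Sycp1. Just past the end of Hormad1, from 28 to 30 kb after its start (chr3:95587677-95589676), H3K4me3 gave 10 and 17 fragments in KO and 2 and 9 in WT, or 4.93 FPM pooled, but IgG gave 1 fragment (1.26 FPM), which is within its floor of 3.79 FPM, so a difference from IgG was not shown. Sycp1 spans 118 kb and held H3K4me3 from 68 to 73 kb into the gene (chr3:102863101-102868100), with 56 and 69 fragments in KO and 27 and 35 in WT, or 24.3 FPM pooled against 2.53 for IgG and 2.2 for H3K9me3, beside 27.5 FPM in the stretch around its own start. A weaker stretch lay from 47 to 51 kb, with 10.4 FPM against 5.06 for IgG. The IgG level rests on 4 fragments, so a difference from IgG was not shown there either. H3K9me3 in Sycp1 reached 9.07 FPM from 97 to 104 kb, but IgG gave 13.9 FPM in the same bases. From 43 to 49 kb H3K9me3 gave 6.96 FPM against 8.85 for IgG, which rests on 7 fragments. From 64 to 70 kb it gave 5.44 FPM against 7.58 for IgG, which rests on 6 fragments. These FPM use totals that include X and Y. In KO replicate 1, chromosomes 1 to 19 held 3963850 of 6746382 fragments for H3K9me3 and 236269 of 270598 for IgG. With totals of those chromosomes H3K9me3 would rise more than IgG, so the order of the 2 in these stretches is not a result. At Prdm9, H3K9me3 was densest over the end of the gene (chr17:15542355-15545354), with 15 and 12 fragments in KO and 28 and 22 in WT, or 3.33 FPM. IgG held 0 fragments there, which allows up to 3.79 FPM, so this was not separable from IgG at its depth. The last exon of Prdm9, which encodes the zinc finger array that reads DNA, overlaps those bases (15543079 to 15545360).

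No difference in level between KO and WT was found at these genes. By limma-voom with Benjamini-Hochberg adjustment, 0 of the 8, 2, 0, and 0 genes tested at starts were called for H3K4me3, H3K27me3, H3K9me3, and IgG, and 0 of the 10, 9, 10, and 2 tested over bodies. The background was 0% in each of the 8 comparisons. At an unadjusted p under 0.05, 0 of the 10 genes passed in any of them without the sibling pair as a block, while 402 of 12780 genes did for H3K4me3 starts. Limma-trend, quantile normalization, the negative binomial test, and the fit with the sibling pair as a block also called 0 of the 10 genes, although over all genes the block called 1 for H3K27me3 at starts, 45 for H3K9me3 over bodies, and 37 for IgG over bodies. With the block, Prdm9 alone of the 10 passed an unadjusted p of 0.05, for H3K9me3 over its body, as did 1247 of 17262 genes (log2 difference -0.84, adjusted p = 0.494). Its level was 0.1045 and 0.1793 FPM per kb in KO and 0.2293 and 0.2721 in WT, lower in KO in both pairs. With 2 libraries against 2, the smallest p of an exact permutation test is 0.333.

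The H3K4me3 differences at starts were small beside their errors. The log2 difference of KO against WT ran from -0.09 (SE 0.38) at Sycp2 to 0.44 (SE 0.40) at Sycp3, with adjusted p = 0.999 for all 8 by limma-voom, and the median of the 8 was 0.14 against 0.17 over all genes tested. Hormad1 and Meiob, where KO lay above WT in both sibling pairs, had log2 differences of 0.15 (SE 0.36) and 0.22 (SE 0.36). Stra8 and Spo11 lay below in both pairs on 0 to 2 fragments per library. For H3K27me3, the log2 difference at Stra8 was -0.70 (SE 0.87, adjusted p = 1) at the start and -0.33 (SE 0.42, adjusted p = 0.9999) over the gene.

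Short fragments, those of 120 bp or less that a whole nucleosome does not protect, made up more of the H3K4me3 signal in KO. At the starts of the 8 genes with H3K4me3 they were 45.1% (95% Wilson interval 38.0 to 52.5) and 36.7% (32.4 to 41.2) of fragments in the KO libraries and 29.3% (20.5 to 39.9) and 19.6% (15.4 to 24.6) in the WT libraries. The KO libraries lay above the WT libraries, for which 0.333 is the smallest p that 2 against 2 allow. The starts of all coding genes moved the same way, with 37.9% and 35.5% in KO and 27.8% and 22.7% in WT, and so did whole libraries, with 33.3% and 35.9% against 22.4% and 22.7%. Whole IgG libraries held 57.1% and 52.1% in KO and 48.8% and 44.3% in WT, so the control moved with genotype too, and its part in the shares at these genes was not tested.

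**Figure D4:**
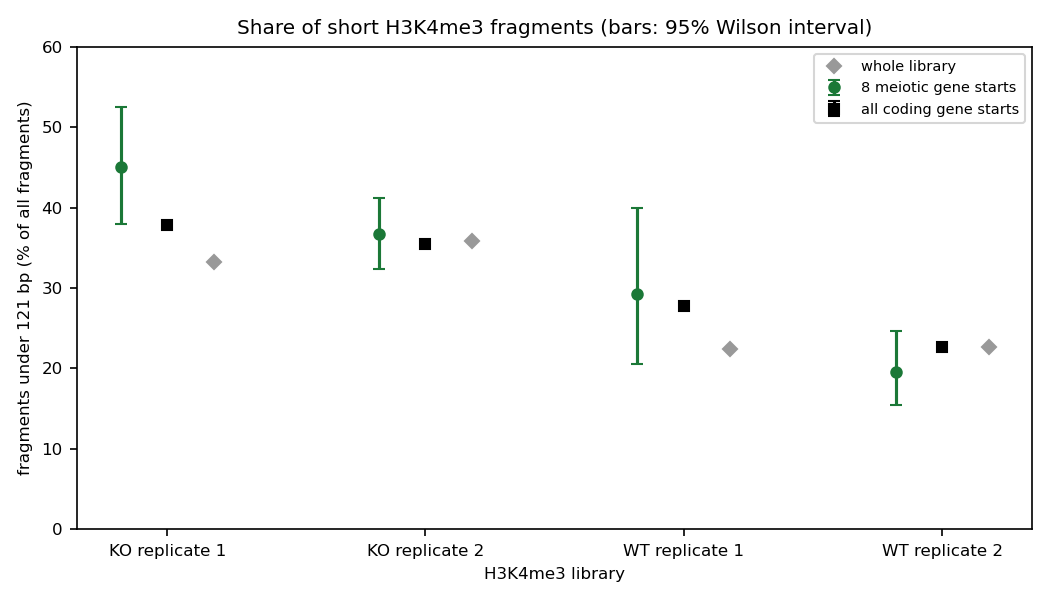
Share of H3K4me3 fragments of 120 bp or less, in percent, in each library, at the starts of 8 meiotic genes (green, with 95% Wilson intervals), at the starts of all coding genes (black), and in the whole library (gray). Both KO libraries lie above both WT libraries in all 3 sets, and the interval of the meiotic genes includes the share of all coding starts in each library but KO replicate 1, where it begins at 38.0% beside 37.9%.

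Gene by gene, the ratio of short to large fragments (150 bp or more) was tested with limma. A gene needed at least 10 short and at least 10 large fragments over the 4 libraries. At starts, 0 of 8 genes were called higher in KO (27 of 9864 genes were, 0.274%), and 4 of the 8 passed an unadjusted p of 0.05, as did 2016 of the 9864. With the block 0 of 8 were called, against 129 of the 9864. Sycp2, Sycp1, Prdm9, and Dmc1 held 3 to 7 short fragments in WT. They reached 10 through KO alone, so their ratios at starts are no support for a difference. The log2 differences ran from 0.30 at Sycp3 to 1.92 (SE 0.73, adjusted p = 0.149) at Sycp2, with a median of 1.32 against 0.79 over all genes tested. Over bodies, 3 of 9 genes were called higher in KO: Spo11 (log2 2.04, SE 0.60, adjusted p = 0.0157), Hormad1 (1.21, SE 0.41, adjusted p = 0.0336), and Sycp1 (1.09, SE 0.30, adjusted p = 0.00992), where 20.6% of 14980 genes were. Spo11 held 50 short fragments in KO and 9 in WT over its body. It reached 10 through KO alone, so its call among these 3 is no support for a difference. None of the 3 was called after centering on the median gene, and 0 were called without KO replicate 1, without KO replicate 2, or without WT replicate 2. At Stra8 the H3K27me3 fragments over the gene were short in 21.5% and 25.7% of cases in the KO libraries and in 11.2% and 8.0% in WT. Pooled, mostly from replicate 1, these were 21.8% (18.2 to 25.9) and 11.0% (8.03 to 14.8). The bodies of all coding genes held 15.8% and 31.5% in KO and 10.6% and 22.4% in WT. Whole H3K27me3 libraries held 16.1% and 34.4% in KO and 10.7% and 24.9% in WT. The log2 difference at Stra8 was 1.17 (SE 0.47, adjusted p = 0.864). With the sibling pair as a block 1 of the 4 genes tested for H3K27me3 was called (0% of 8193 genes without it, and 1223 with it). For H3K9me3 over bodies, 0 of 5 genes were called, where 0 of 10051 genes were. The block called 0 of the 5 and 1085 of the 10051.

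The marks at 44 further genes of meiotic prophase are given for comparison, without a test. Their median H3K4me3 at starts was 13.1 FPM, against 14.7 FPM for the 10 genes, and 36 of the 44 were above 3.78 FPM. Among synaptonemal complex genes, Syce3, a central element protein, was highest with 29.0 ± 8.97 FPM (SD, n = 4). Hormad2, a relative of Hormad1 and the lower of the 2 further axis genes, held 20.6 ± 4.24 FPM, and Mybl1, a transcription factor of pachytene spermatocytes, held 16.3 ± 2.42 FPM. Terb1, which acts in telomere attachment and led its group, held 13.8 ± 5.94 FPM. Some genes that led their group share their start region with a neighbor, such as Trip13, an ATPase that removes HORMA proteins (22.0 ± 6.25 FPM, 27 bp from the start of Brd9), and Smc1b, a cohesin subunit (17.0 ± 4.05 FPM, 114 bp from Ribc2), so there the mark cannot be given to 1 gene.

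Of the 44, 8 lacked H3K4me3 above 3.78 FPM at either start: Ythdc2, Rad21l, 4930447C04Rik, Mei1, Mei4, Rec114, Tex11, and AI481877. Of these, 2 held H3K27me3 above 3.78 FPM, as Stra8 did. Rad21l, a meiotic cohesin kleisin like Rec8, held 5.24 ± 3.65 FPM of H3K27me3 (SD, n = 4) and 0.115 FPM of H3K4me3. 4930447C04Rik, a central element gene also known as Six6os1, held 57.6 ± 7.77 FPM of H3K27me3 and 0.188 FPM of H3K4me3, but its start is 882 bp from that of the developmental gene Six6. Over all coding genes, 11207 lacked H3K4me3 above 3.78 FPM at both starts, and 4040 of them held H3K27me3 above it. Rec114, a partner of the break machinery, held neither (0.0736 FPM of H3K4me3 and 0.218 FPM of H3K27me3). The lowest of the remaining roles were Tex15 in repair (4.90 ± 0.302 FPM of H3K4me3) and Terb2 in telomere attachment (4.47 ± 1.07 FPM, 83 bp from the start of Patl2).

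**Figure D5:**
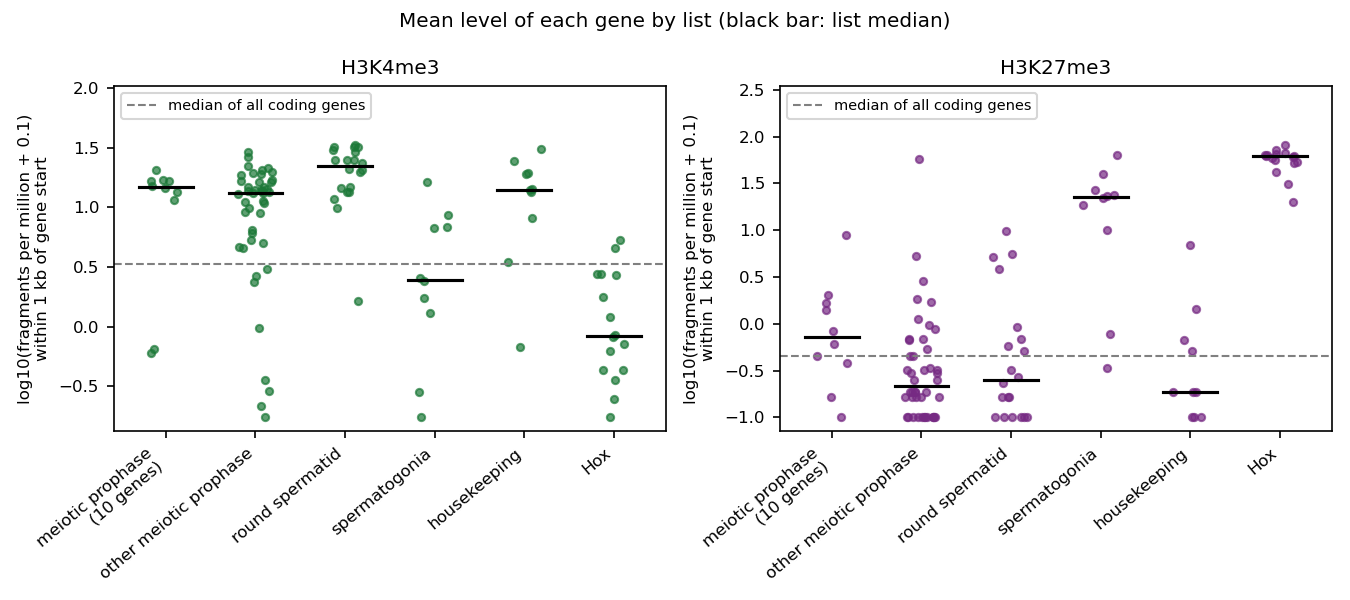
Mean level of each gene within 1 kb of its start, as log10 of FPM plus 0.1, by gene list, with H3K4me3 on the left and H3K27me3 on the right, black bars for list medians, and a dashed line for the median of all coding genes. The meiotic lists sit beside round spermatid and housekeeping genes for H3K4me3, and Hox and spermatogonia genes are the lists with high H3K27me3.

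Set beside other lists, with no test between them, the 10 meiotic genes had a median H3K4me3 of 14.7 FPM where 20 round spermatid genes had 22.2 FPM and 10 housekeeping genes had 14.0 FPM. The range among round spermatid genes ran from Prm1 (1.54 FPM) to Ldhc (33.4 FPM), and that among housekeeping genes from Eef1a1 (0.578 FPM) to Actb (31.0 FPM). Spermatogonia genes had 2.37 FPM, from Sall4 (0.0736 FPM) to Lin28a (16.3 FPM), and 16 Hox genes had 0.734 FPM. For H3K27me3 the order was different, with 61.4 FPM at Hox genes, 22.5 FPM at spermatogonia genes, and 0.623 FPM at the 10 meiotic genes, where the median of coding genes was 0.351 FPM. Stra8, at 8.80 FPM, was below the spermatogonia median and was the single meiotic gene of the 10 above 3.78 FPM, as were 5083 of all coding genes (23.2%).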

How the data were processed

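Distinct chromatin fragments were counted at 10 meiotic genes in 16 AutoCUT&RUN libraries from haploid spermatids. The authors aligned paired ends to mm10 with Bowtie2 (2.3.4.3 in the submitters' processing notes) and deposited, per library and without scaling or pooling, a list of fragment positions and lengths rather than counts. Although removal of PCR duplicates is described in the methods, identical fragments occur in the lists, so each combination of coordinates was counted once per library. The share kept differed between libraries. It was lowest in WT replicate 1 of H3K4me3 (784360 of 4710948 fragments) and highest in KO replicate 1 of H3K9me3 (6746382 of 10162060).

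Fragments were assigned by midpoint to windows within 1 kb of the gene start and to gene bodies of GENCODE M21, for 21938 coding genes. Genes with at least 10 fragments over the libraries compared were tested for level. For the ratio, at least 10 fragments of 120 bp or less and at least 10 of 150 bp or more were needed. KO and WT were compared with limma-voom, targets with a negative binomial quasi-likelihood test with genotype as covariate and the library total as offset, and the log2 ratio of fragments of 120 bp or less to those of 150 bp or more (0.5 added to each) with limma, weighted by counting variance. Adjusted p-values are Benjamini-Hochberg values over all genes tested, and genes under 0.05 were called. Fold values over IgG pool 4 libraries and carry exact 95% counting intervals, and a count of 0 was set to a floor of 3 counts pooled over the group. Level tests of some comparisons, and the ratio test over bodies after centering, were also run on simulated counts, with outcomes not given here. The ratio test without centering was not. SDs are over libraries, and each animal gave 1 library per target.

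The study's methods used 2 sibling pairs for replicate experiments, so replicates 1 and 2 were taken as these pairs. The sample titles do not name the pairs. Titles with the same replicate number also share a code that differs between the numbers. In the fits with the sibling pair as a block, the pair therefore cannot be told apart from what that code stands for. Across genes, deviations from genotype means correlated between animals of the same number with r = 0.242 for H3K4me3, 0.298 for H3K27me3, 0.195 for H3K9me3, and 0.215 for IgG. Libraries of the same number can also share processing and depth, so these values cannot show that the animals were siblings. The 10 genes, the gene lists, and the tests were chosen with earlier results of these data known. The genes named beside the 10 are the highest and the lowest in H3K4me3 per role of the other meiotic list and per comparison list (single Hox genes are not reported here), while those under 3.78 FPM in both windows and the long-gene stretches were chosen after their values were seen. Alternatives covered windows, totals, filters, scaling, other tests, duplicates, the pair as a block, and leaving out each library. Python 3.11.15, numpy 2.4.6, pandas 2.3.3, scipy 1.17.1, matplotlib 3.10.9, R 4.3.3, and limma 3.58.1 were used.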

Additional observations from a re-analysis of the deposited data

How the results depend on the processing

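Of 379 alternative values for counts of genes called, or of genes above the coding-gene median, 338 stayed within 1.5 times the reported count, 32 were lower, 8 were higher, and 1 had more genes lower than higher where the reported count had none lower. The 338 include counts of 0 that stayed 0, also for comparisons where none of the 10 genes reached the fragments needed. The 338 are therefore no measure of how steady the calls were. In all 108 alternative fits of level between KO and WT, which are among the 338, 0 of the 10 genes were called. Of these 108, 90 called 0 genes of any kind. The fits of the short to large ratio are not among the 108. At starts, the count of genes with more H3K4me3 than IgG went from 8 to 5 with every deposited fragment and to 0 with median-of-ratios scaling. That with a difference between H3K27me3 and IgG went from 1 to 2 with every deposited fragment, with 2 kb on each side, and with median-of-ratios scaling, and that between H3K27me3 and H3K9me3 went from 2 to 0 with median-of-ratios scaling. Over bodies, H3K4me3 against IgG went from 4 to 0 with every deposited fragment and to 2 with median-of-ratios scaling, H3K27me3 against IgG from 3 to 0 with every deposited fragment and to 5 with limma-voom, and H3K9me3 against IgG from 4 to 0 with every deposited fragment or median-of-ratios scaling, to 2 with the total of chromosomes 1 to 19, and to 9 with limma-voom. H3K4me3 against H3K27me3 went from 8 to 2 with every deposited fragment, and H3K27me3 against H3K9me3 from 1 to 3 with limma-voom and to 5 with median-of-ratios scaling, where Stra8 was still higher and 4 other genes were lower. The short to large ratio of H3K4me3 over bodies went from 3 to 0 with every deposited fragment, after centering, or without weights, and to 1 with fragments of 100 bp or less against those of 150 to 250 bp. For the alternatives to the tests between antibodies and to this ratio, here and above, the share of all genes called is not given. A shift of the 10 genes can therefore not be told from a shift of all genes. The cause was not tested.

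With the sibling pair as a block, H3K4me3 against IgG over bodies went from 4 to 2, H3K27me3 against H3K9me3 over bodies from 1 to 2, and the H3K27me3 ratio over bodies from 0 to 1, and no other count changed by over 1.5 times. Leaving out 1 library at a time gave 6 to 8 for H3K4me3 against IgG at starts and, over bodies, 2 to 4 for H3K4me3 against IgG, 2 to 3 for H3K27me3 against IgG, 0 to 4 for H3K9me3 against IgG, 5 to 8 for H3K4me3 against H3K27me3, and 0 to 2 for the H3K4me3 ratio. Depth limits the IgG libraries and WT replicate 2 of H3K27me3 most, where a level under 11.1 to 18.8 FPM in a single library cannot be told from 0.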
